A study of Saccharomyces cerevisiae with 24 samples.

Results

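The replication programme of budding yeast (Saccharomyces cerevisiae) over-expressing 6 replication initiation factors was followed through a single S-phase. The strain is called SSDDCS after the initials of the factors. The data are the 11 S-phase tables of this strain, chosen by the strain and time in the sample titles, out of 22 tables from 2 strains. With the G1 sample that forms the denominator of every ratio, they draw on 12 of 24 samples. DNA was sequenced at 5, 10, 15, 20, 25, 30, 35, 40, 45, 50 and 60 min after release, with 1 library per time point. There are no replicates, so no p-value is given, and each error below is that of a fit or of the noise between neighbouring 1-kb bins.

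SSDDCS cells were MATa derivatives of W303 with the markers ade2-1 and ura3-1, the his3-11, 15 and trp1-1 mutations, leu2-3, 112 and also can1-100 and rad5-535. Cdc45 and Sld7 were expressed from leu2::Sld7-PGAL1-10-Cdc45::LEU2, and Dpb11 and Sld2 from trp1::Sld2-PGAL1-10-Dpb11::TRP1. At HIS3, SLD3-A and Dbf4-A were placed on either side of the same PGAL1-10 promoter. The gene of the ribonucleotide reductase inhibitor Sml1 was deleted with sml1_delta::HphNT. The other strain, used here only for context, shares the background and carries sml1_delta::URA3 alone. Cells were arrested in G1 with the mating pheromone alpha factor in raffinose medium, given galactose for 30 min to switch on the GAL1-10 promoter, and released into galactose. The inserted copies of all 6 factors therefore depended on galactose, and in these ratios they cannot be told apart from the native genes. Reads of these W303 cells were mapped to the S288C reference, and because each ratio is to the strain's own G1, a deleted or added gene copy cancels and the genotype cannot be checked from the tables.

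Replication of a yeast chromosome starts at origins, short DNA elements bound by the origin recognition complex, on which the MCM helicase is loaded in G1. In S-phase the kinases CDK and DDK, of which Dbf4 is a subunit, trigger the assembly of Cdc45 and GINS onto MCM with the help of Sld2, Sld3, Sld7 and Dpb11. A pair of forks then moves away from each origin, and forks from neighbouring origins meet and terminate between them. In a profile of replication time along a chromosome an active origin appears as an early peak, and the place where forks meet as a late valley.

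The ARS consensus sequence is the core element that the origin recognition complex contacts. A match on either strand, with at most 1 mismatch, lay in the central 300 bases of 292 of 352 annotated origins (83.0%). The same was true of 127 of the 139 origins that were the nearest to an SSDDCS peak and within 3 kb of it (91.4%). Of all 40229 windows of 300 bases tiled along the nuclear chromosomes, 26.8% held such a match. Windows at the centre of the peak bins (53 of 211, 25.1%) and of the valley bins (62 of 188, 33.0%) held a match with at most 1 mismatch. Matches with no mismatch were found at 34.4% of annotated origins and in 1.88% of all windows.

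The sequences below are 101 bases around the best match inside annotated origins at both ends of the SSDDCS programme, and are shown because the earliest sites can be read against the latest ones. Coordinates are 1-based on R64, each sequence is written 5′ to 3′ on the strand of the match, and capitals mark the 11 bases matched to the consensus. Where an origin held several equal matches, as ARS406, ARS513 and ARS1212.5 did, the one nearest its middle is given. The first 7 are origins within 3 kb of the earliest peaks.
ARS1213 (chrXII:373270-373370, minus strand): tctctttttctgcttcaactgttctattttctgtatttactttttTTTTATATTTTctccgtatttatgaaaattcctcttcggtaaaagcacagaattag
ARS1501 (chrXV:489848-489948, plus strand): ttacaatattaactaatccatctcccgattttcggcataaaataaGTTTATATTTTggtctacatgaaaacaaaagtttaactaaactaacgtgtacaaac
ARS707 (chrVII:163193-163293, plus strand): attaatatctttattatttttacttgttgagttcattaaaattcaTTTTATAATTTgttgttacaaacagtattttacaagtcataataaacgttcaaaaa
ARS406 (chrIV:123736-123836, minus strand): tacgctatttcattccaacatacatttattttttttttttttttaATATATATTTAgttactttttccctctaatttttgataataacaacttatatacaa
ARS607 (chrVI:199371-199471, plus strand): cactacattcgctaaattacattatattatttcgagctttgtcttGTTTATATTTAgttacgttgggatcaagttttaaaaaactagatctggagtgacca
ARS922 (chrIX:411946-412046, minus strand): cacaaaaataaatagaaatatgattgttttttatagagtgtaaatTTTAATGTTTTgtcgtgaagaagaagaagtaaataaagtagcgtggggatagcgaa
ARS1531 (chrXV:35672-35772, plus strand): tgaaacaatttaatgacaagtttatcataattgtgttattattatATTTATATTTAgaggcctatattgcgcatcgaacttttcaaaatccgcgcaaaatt
At an eighth early origin, ARS202, the best match had 2 mismatches and is not shown. The following 4 sequences are from the annotated origins with the latest Trep in SSDDCS, none of which lay within 3 kb of a peak.
ARS1212.5 (chrXII:343800-343900, plus strand): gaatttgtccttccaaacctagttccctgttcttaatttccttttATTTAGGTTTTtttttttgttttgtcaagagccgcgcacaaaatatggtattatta
ARS513 (chrV:258027-258127, minus strand): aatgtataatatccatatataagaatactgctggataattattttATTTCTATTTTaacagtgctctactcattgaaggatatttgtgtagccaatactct
ARS712 (chrVII:241138-241238, plus strand): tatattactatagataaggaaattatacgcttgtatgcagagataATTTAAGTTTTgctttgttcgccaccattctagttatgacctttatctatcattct
ARS701 (chrVII:231887-231987, plus strand): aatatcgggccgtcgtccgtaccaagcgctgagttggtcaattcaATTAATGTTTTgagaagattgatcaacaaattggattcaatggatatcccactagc
Full matches, with 0 mismatches, occurred in ARS1213 and ARS1531, and the other 9 printed matches had 1 mismatch. A match is a description of the sequence and not evidence of use.

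The ratio in a table is the copy number of a bin relative to G1, so that 1 means not yet copied and 2 means copied in all cells. Its mean over the genome was set by the authors to a bulk factor read from flow cytometry, which lay between 1.02 at 5 min and 1.992 at 60 min. The reads therefore set only the differences between bins of a table. The tables held between 11318 and 11322 bins of 1 kb. Read depth is unknown because only ratios were given, and the noise of a bin, from differences between neighbours, was between 4.89% and 5.67% of the mean in the 11 libraries. The noise of a mean over 9 bins was between 1.63% and 1.89%. Bin noise was correlated between libraries with a median coefficient of 0.53 over bins. All 11 libraries share 1 G1 library.

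In SSDDCS most 9-bin means reached a ratio of 1.5 between 15 and 30 min after release, while the table mean rose from 1.28 to 1.79. No 9-bin mean had reached a ratio of 1.5 at 15 min. The share that had was 53.0% by 20 min, 84.2% by 25 min and 97.6% by 30 min. A ratio of 1.75 was passed by 0.19% of the means in the 20 min library, by 35.4% in the next and by 73.8% in the 30 min library. In the 40 min library 99.5% were past it, and 100% in each later one.

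Differences along the genome appeared and vanished with S-phase. The median ratio of bins within 2 kb of an annotated origin was 1.02 at 5 min and 1.13 at 10 min, against 1.02 and 1.105 in bins 15 kb or more from any annotated origin. In the 15 min library it was 1.38 at origins against 1.24 in far bins, in the 20 min library 1.63 against 1.34, and in the 25 min library 1.785 against 1.53. In the 30 min library it was 1.86 against 1.71, in the 40 min library 1.95 against 1.90, and in the last library 1.99 in both sets. Relative to the table mean, the difference was largest at 20 min, where it was 19.4%. It was 10.5% in the library before and 15.1% in the one after, and had dropped to 8.36% at 30 min and 2.59% at 40 min. It was -0.20% at 5 min and -0.10% at 60 min.

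**Figure D1:**
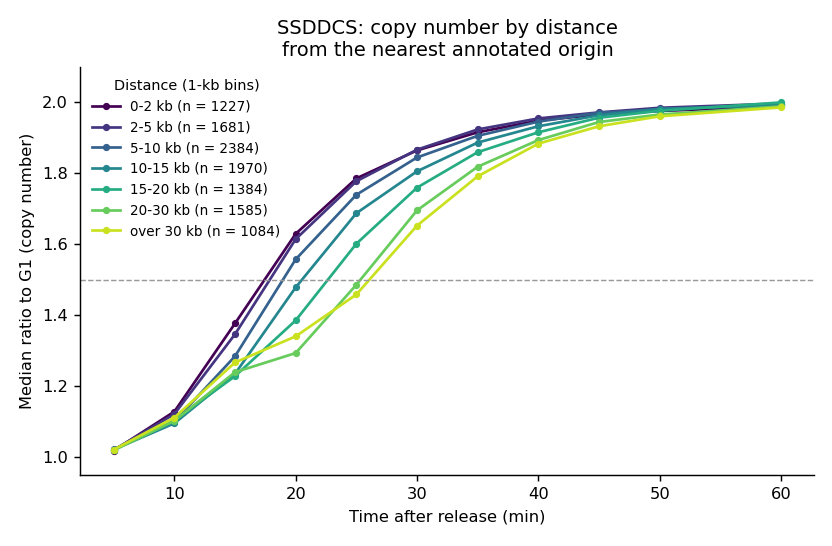
Median ratio to G1 (y axis, copy number) against time after release in min (x axis) in SSDDCS, for 1-kb bins grouped by distance to the nearest annotated origin. The dashed line marks a ratio of 1.5. Bins within 2 kb crossed it between 15 and 20 min and bins over 20 kb away between 25 and 30 min, and all groups came together by 60 min.

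The order by distance was steep, and it was not the same at every time point. The median ratio at 20 min was 1.63 within 2 kb of an annotated origin, 1.61 at 2 to 5 kb, 1.56 at 5 to 10 kb, 1.48 at 10 to 15 kb, 1.385 at 15 to 20 kb and 1.29 at 20 to 30 kb. Beyond 30 kb it was 1.34, above the bins at 20 to 30 kb. At 15 min the lowest group was 15 to 20 kb, with 1.23, and bins beyond 30 kb had 1.27. From 25 min on the bins beyond 30 kb were the lowest group, with 1.46 at 25 min and 1.65 at 30 min. Bins far from annotated origins also hold peaks with no annotated origin, which are described further down.

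The replication time of each bin, Trep, is the time at which a sigmoid fitted to its 11 ratios reached 1.5. It was obtained for 11315 of 11326 bins, 93.7% of the nuclear genome. The median Trep was 20.9 min, with quartiles at 18.6 and 23.9 min, and the span between the 10th and 90th percentiles was 9.96 min. Fits had a median SE of 1.01 min. The noise of a single bin, estimated from differences between neighbours, was 2.06 min (robust SD), a spread that the fit SE does not cover. A mean over 9 bins thus carries a noise of 0.69 min, and this is the error meant below for Trep at a peak, a valley or a gene. The fitted rise from 25% to 75% of the copying took 10.6 min (median) within 2 kb of peaks and 13.7 min within 2 kb of valleys.

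Trep followed distance from annotated origins. Its median was 18.2 min within 2 kb, 18.5 min at 2 to 5 kb, 19.8 min at 5 to 10 kb, 21.3 min at 10 to 15 kb, 22.9 min at 15 to 20 kb, 25.0 min at 20 to 30 kb and 25.4 min beyond 30 kb. Across bins the rank correlation of Trep with distance was 0.58 (11315 bins, which are not independent since neighbours share forks and all share the same libraries).

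Peaks were called as local minima of the 9-bin mean that stood at least 2 min below their surroundings, which is 2.91 times its noise. There were 211 of them, 17.5 per Mb, and 188 valleys between neighbouring peaks. Their Trep values formed very different distributions. Peaks had a median of 17.7 min and a span of 2.38 min between the 10th and 90th percentiles, from 16.7 to 19.0 min. Valleys had a median of 24.1 min and a span of 8.92 min, from 20.7 to 29.6 min. Of the peaks, 157 (74.4%) lay within 1 min of their median, and of the valleys 40 (21.3%). The SD over peaks was 1.18 min, set against a noise of 0.69 min for a single value, and the SD over valleys was 3.39 min. Since peaks and valleys were both chosen on Trep, the distance between the distributions is not a finding, and the widths are given as a description. The span over peaks also depended on the processing. It was 3.84 min with a prominence of 1 min, 4.91 min with a moving average over 5 bins and 1.43 min with a scale fitted per bin, against 10.5 min over valleys in that last fit.

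**Figure D2:**
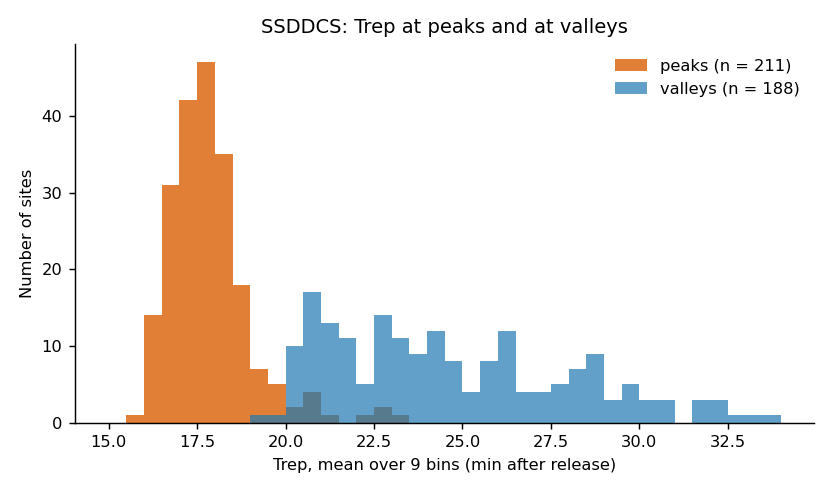
Number of sites (y axis) by Trep in min after release (x axis, 9-bin means, classes of 0.5 min) for the 211 peaks and 188 valleys of SSDDCS. Peaks pile up between 16.7 and 19.0 min, and valleys spread from 19.1 to 33.5 min.

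The height of a peak over its surroundings ranged from the limit of 2 min to 15.5 min, with a median of 5.28 min. Of the 211 peaks, 42 stood out by 2 to 3 min and 33 by 3 to 4 min, and these are the least certain. The 136 peaks of 4 min or more had a similar Trep, with a median of 17.5 min and a span of 2.13 min. The number of peaks was 136 at this limit, with a median distance of 70.0 kb between neighbours in place of 49 kb.

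The 10 earliest peaks are taken among those with at least 7 of 9 bins measured. The lowest Trep was on chromosome XII, at chrXII:374001-375000, with 15.5 min. The bin lies 1.21 kb from ARS1213 (chrXII:373254-373332), whose sequence is given above, and overlaps AVL9, a gene of late exocytic transport, and the non-coding gene YNCL0007W. In the libraries from 5 to 60 min its 9-bin ratio was 1.06, 1.19, 1.46, 1.77, 1.93, 1.99, 2.01, 2.03, 2.05, 2.04 and 2.04. Copying was therefore nearly complete here at 25 min. Leaving out 1 library at a time, its Trep stayed between 15.4 and 15.7 min.

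The second peak, chrXV:492001-493000, had a Trep of 16.1 min and the greatest height of all, 15.5 min. It overlaps PTC5, which encodes a mitochondrial protein phosphatase, 2.69 kb from ARS1501 (chrXV:489683-489942). Its ratios from 5 to 60 min were 1.05, 1.19, 1.43, 1.73, 1.91, 1.96, 1.95, 1.98, 2.02, 2.04 and 2.02. From 25 min on the ratio stayed at 1.91 or above.

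The remaining 8 of the 10 earliest peaks had a Trep between 16.2 and 16.4 min. Neighbours in the order of all 10, the first and second included, differed by less than the noise of 0.69 min, so that the order is not resolved. Of the 8, 6 lay within 3 kb of an annotated origin. They were the peaks beside ARS707 on chromosome VII (16.3 min, in the autophagy kinase gene ATG1), ARS202 on chromosome II (16.4 min), ARS406 on chromosome IV (16.4 min), ARS607 on chromosome VI (16.4 min, in PES4), ARS922 on chromosome IX (16.4 min, in DAL7) and ARS1531 on chromosome XV (16.4 min, in ZPS1). ARS607 is known as one of the earliest and most efficient origins of yeast. DAL7 encodes a malate synthase of allantoin use, and lies 26.4 kb from the right end of chromosome IX.

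The other 2 of the earliest peaks had no annotated origin nearby. The peak at chrXV:1051001-1052000, 39.8 kb from the chromosome end, overlaps AMF1 and RDR1, a repressor of multidrug resistance genes, and had a Trep of 16.2 min. Its nearest annotated origin was 69.9 kb away. The peak at chrXV:435001-436000, in the spindle midzone gene ASE1, had a Trep of 16.4 min, and its nearest annotated origin was 54.3 kb away. At 20 min these bins had reached ratios of 1.71 and 1.71, within the range of 1.70 to 1.77 over all 10 earliest peaks.

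The 5 latest peaks were low. The latest, at chrXIII:228001-229000 across NSE5 and APT1, had a Trep of 23.5 min and stood out by 2.30 min. Its ratios from 5 to 60 min were 1.01, 1.12, 1.33, 1.45, 1.498, 1.69, 1.83, 1.93, 1.95, 1.98 and 1.98. It was below the lowest of the 10 earliest peaks in each library, an order that the choice of both by Trep implies in part. At 5 min the values, 1.012 against at least 1.015, differed by less than the noise of a 9-bin mean. They were 1.33 against at least 1.38 at 15 min and 1.498 against at least 1.83 at 25 min.

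The next peaks were at chrX:166001-167000 in URA2 (22.8 min, the first enzyme of pyrimidine synthesis), chrVII:249001-250000 across SEC27 (22.5 min, a coat protein of Golgi vesicles), chrIV:793001-794000 in STB3 (22.2 min) and chrXII:285001-286000 across BOS1 (21.4 min, a SNARE of transport to the Golgi). None of the 5 lay within 3 kb of an annotated origin. Their heights were between 2.02 and 4.84 min. With 1 free scale for each bin, the peak in URA2 moved to 25.1 min and that across BOS1 to 19.3 min, so that these positions are less firm than the early ones.

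**Figure D3:**
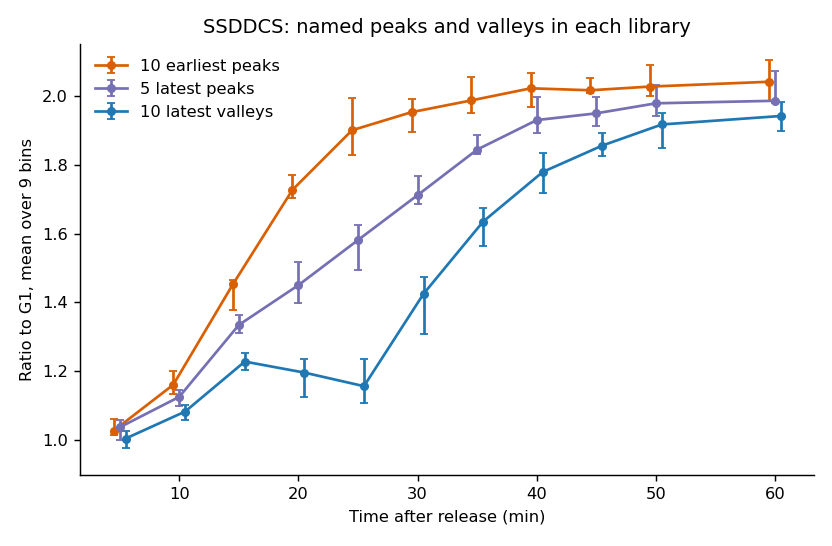
Ratio to G1 (y axis, 9-bin means) against time after release in min (x axis) for the 10 earliest peaks, the 5 latest peaks and the 10 latest valleys of SSDDCS. Points are medians and bars run from the lowest to the highest site. The valleys stayed between 1.11 and 1.25 from 15 to 25 min, while the earliest peaks had at least 1.70 at 20 min.

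Annotated origins were frequent at peaks. Of the 211 peaks, 139 (65.9%, Wilson 95% interval 59.2% to 71.9%, counting error only) lay within 3 kb of an annotated origin, against 16.02% of all bins. Of the 188 valleys 2 did (1.06%). These were at chrIII:117001-118000, 2.87 kb from ARS308 (21.2 min), and at chrVII:233001-234000, 1.56 kb from ARS701 (24.8 min), the late origin printed above. The share was 52.4% among peaks that stood out by 2 to 3 min and 73.9% among the 92 that stood out by 6 min or more. The share depended on the processing. It was 84.7% when a scale was fitted to each bin, 59.2% with a prominence of 1 min, 57.3% without the 15 min library and 47.8% with a moving average over 5 bins, all above the share of bins.

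The annotated origins as a group were early. Of the 352, 321 had a 9-bin Trep, with a median of 18.5 min and quartiles at 17.7 and 19.6 min, against the median of 20.9 min over all bins. Only 39 (12.1%) were later than that median. Of the 321, 177 (55.1%) lay within 5 kb of a peak, against 20.1% of all bins, and 143 (44.5%) lay within 3 kb. Another 94 lay more than 10 kb from any peak. Of the 11315 bins with a Trep, 1872 lay 10 to 15 kb from a peak, 1563 at 15 to 20 kb, 2017 at 20 to 30 kb and 1562 further away. The origins away from peaks had a median Trep of 19.7 min, against 17.8 min for those at a peak, a difference that the choice of peaks by Trep implies in part.

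The latest annotated origins lay away from peaks. ARS1212.5 (chrXII:343577-344032) had a Trep of 24.3 min and its nearest peak was 30.7 kb away, at the ARS1213 site. ARS513 (chrV:257958-258737) had 24.2 min, 27.2 kb from a peak. ARS712 (chrVII:241085-241353) had 23.9 min and ARS701 (chrVII:231907-231981) 23.4 min, in the same late stretch of chromosome VII.

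A smaller group of peaks was far from any annotated origin. Of the 211 peaks 27 (12.8%) were more than 8 kb away, a distance that 61.2% of all bins exceed. Their median Trep was 18.1 min, with a range from 16.2 to 23.5 min, and 12 of them stood out by 4 min or more. The tallest, at chrXII:821001-822000 in YLR345W, stood out by 9.62 min and had a Trep of 17.9 min. Another, at chrXVI:209001-210000 in the phosphatase gene PPQ1, stood out by 7.13 min with 17.5 min, and one at chrVIII:364001-365000 across the dynactin gene ARP1 by 6.96 min with 17.6 min. Whether these are origins missing from the annotation cannot be told from the ratios. Some had high ratios at both ends of S-phase, as chrII:537001-538000 (1.08 at 5 min, 2.08 at 60 min) and the peak in URA2 (1.06 and 2.07). The medians over all peaks were 1.03 and 2.02. Others had not, as the peak across NSE5 and APT1 (1.01 and 1.98). The part of such an offset in the height of these peaks was not tested. The paper names ARS816, deleted together with ARS818 to delay NDT80, and ARS821, whose firing it reports as stimulated in SSDDCS. Neither name is in the annotation used here, so that its list of origins was not complete. The called peak nearest to NDT80 was that across ARP1. Its match to ARS816 was not tested, since the paper's text gives no coordinates.

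Neighbouring peaks lay 49 kb apart in the median (quartiles 36.8 and 67.2 kb), with the closest pair 13 kb and the most distant 116 kb apart. The distance went with the Trep of the valley between them. Valleys in intervals below 30 kb had a median Trep of 20.9 min (25 intervals), at 30 to 45 kb 22.0 min (52), at 45 to 60 kb 24.4 min (49), at 60 to 75 kb 27.3 min (35) and from 75 kb on 29.0 min (27). The flanking peaks did not follow this order, with class medians between 17.6 and 17.9 min. Over the 188 valleys the correlation of valley Trep with the distance was 0.795 (Spearman 0.81), and with the mean Trep of both flanking peaks 0.17 (Spearman 0.24). A line through the points rose by 1.29 min for each 10 kb of distance. The valleys share peaks, libraries and the smoothing, so these coefficients are descriptions.

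**Figure D4:**
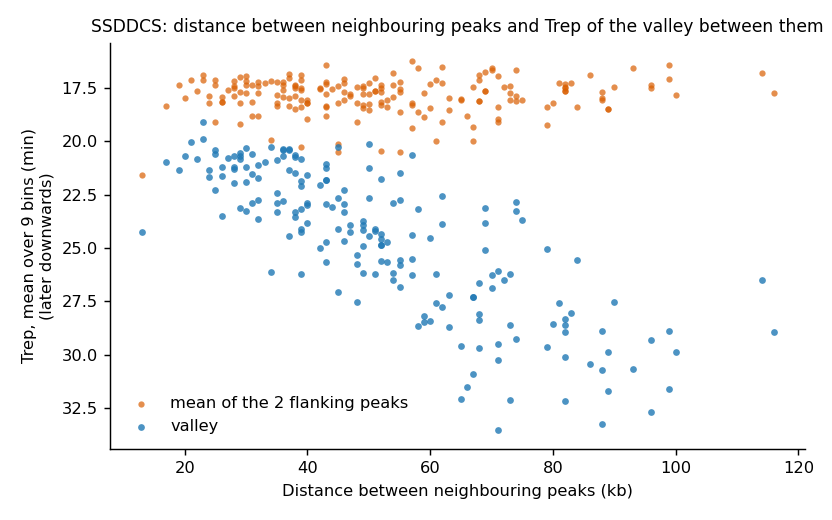
Trep of the 188 valleys and of the peaks beside them (y axis, min, later downwards) against the distance between the neighbouring peaks (x axis, kb) in SSDDCS. The peaks stay level across distances, and the valleys go down by 1.29 min per 10 kb.

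The widest interval was on chromosome IV, with peaks at chrIV:211001 and chrIV:327001 (17.4 and 18.1 min) that lay 116 kb apart, and a valley of 29.0 min across BUG1 and SNU23. The second, of 114 kb on chromosome II, had its valley at 26.5 min in SAS3, a histone acetyltransferase gene. The others of the 5 widest were 100.0 kb and 99 kb on chromosome XV, with valleys at 29.9 min across PEX27 and 31.6 min in AKR2, and 99 kb on chromosome XVI, with a valley at 28.9 min in SSE1. These 5 valleys were all later than the median valley of 24.1 min. The widths are distances between called peaks, and annotated origins more than 10 kb from any called peak lay inside the widest intervals. In the widest, ARS409.5, ARS410, ARS411 and ARS412 had a Trep of 20.9, 19.3, 20.1 and 19.4 min. In the second, ARS203 and ARS206 had 20.1 and 19.1 min. A wide interval was therefore not always a stretch without earlier sites.

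The 5 narrowest intervals were 13 and 17 kb on chromosome IV, 19 kb on chromosome XIV, 20.0 kb on chromosome X and 21 kb on chromosome IX. Their valleys were at 24.3 min in SEC7, 20.9 min in SIZ1, 21.4 min in RLP7, 20.7 min across SYS1 and COX16, and 20.0 min across AXL2 and REV7. The first of them was later than the other 4, and its peaks were at 22.2 and 20.9 min. With 1 free scale for each bin this valley was at 19.8 min and its peaks at 21.2 and 17.8 min, so that its late value depended on the fit.

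The flanks between peak and valley rose by a median of 0.27 min per kb over 376 flanks (quartiles 0.21 and 0.33), which corresponds to an apparent 3.72 kb per min. Left and right flanks were alike, with 0.27 and 0.26 min per kb. The rise was similar in every class of interval, between 0.24 and 0.29 min per kb. It is an average over cells and over the forks that pass a site, and not a measured fork speed. Valleys lay a median of 3.5 kb from the middle of their interval. Among the 80 intervals whose peaks differed by 1 min or more, the valley was nearer to the later peak in 57, nearer to the earlier peak in 20 and in the middle in 3.

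The latest valleys lay far from chromosome ends. A valley was called only between 2 peaks, so stretches outside the outermost peaks of a chromosome could not be among them. The 10 latest had a Trep between 30.9 and 33.5 min and lay at least 148 kb from a chromosome end and between 21.7 and 58.0 kb from the nearest annotated origin. The latest was at chrXII:178001-179000, at 33.5 min, between peaks 71 kb apart. Its bin overlaps MEU1, a gene of methionine salvage, and POM34, a gene of the nuclear pore. Its ratios from 5 to 60 min were 1.01, 1.09, 1.22, 1.22, 1.115, 1.31, 1.57, 1.75, 1.88, 1.93 and 1.93. Most of its rise thus came between 25 and 45 min.

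The second latest valley, chrXIII:326001-327000 in YMR027W, had a Trep of 33.2 min between peaks 88 kb apart. Its ratios from 5 to 60 min were 0.99, 1.08, 1.24, 1.22, 1.11, 1.34, 1.63, 1.73, 1.83, 1.92 and 1.96. As at the first, the values at 15 and 20 min were above the value at 25 min.

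The third, chrXV:821001-822000 in PNT1, had 32.7 min. The others were chrIV:374001-375000 in MTF2 (32.2 min), chrX:267001-268000 in SIP4 (32.1 min), chrVII:741001-742000 in the asparagine synthetase gene ASN2 (32.1 min), chrVII:942001-943000 across HSV2 and AZR1 (31.7 min), chrXV:395001-396000 in AKR2 (31.6 min), chrXIII:726001-727000 in the ribosome assembly gene RRP5 (31.5 min) and chrII:293001-294000 in ETR1 (30.9 min). MTF2 and ETR1 both serve mitochondrial functions, and SIP4 encodes an activator of gluconeogenesis genes. Neighbours in this order differed by less than 0.69 min, so that the order is not resolved, but the first and the last, at 33.5 and 30.9 min, differed by more.

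The ratios of these valleys did not climb steadily. At 15 min the 10 valleys lay between 1.20 and 1.25, with a median of 1.23, at 20 min between 1.13 and 1.24 with a median of 1.20, and at 25 min between 1.11 and 1.24 with a median of 1.16. The ratio was lower at 20 min than at 15 min in 9 of 10, and lower at 25 min than at 15 min in 8 of 10. The median step between 15 and 20 min was -0.03, and the largest drops among all valleys were -0.11 in this step and -0.12 in the next. At 30 min they had a median of 1.43, at 40 min 1.78 and at 60 min 1.94, against 2.04 at the 10 earliest peaks. These 2 sets already differed at 5 min, with medians of 1.01 and 1.03. Both were chosen on Trep and share the G1 library, and bins near annotated origins and far from them both had 1.99 at 60 min. Whether the difference at 60 min is copying left to do was not tested.

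Among all 188 valleys, 41 (21.8%) were lower at 20 min than at 15 min and 9 were lower at 25 min than at 20 min. Among the 211 peaks none was, in either step. At 15 min the 10 latest valleys were also not the lowest sites, since the median over all valleys was 1.21. In the 20 min library their median of 1.20 was below the 1.34 of all valleys. The valleys were chosen on Trep, which is itself fitted to these ratios. The level of a whole table rests on the flow cytometry factor, and the part of that factor in these steps was not tested. In the sml1Δ strain, processed in the same way, 1 of 131 valleys was lower at 20 min than at 15 min and 36 were lower at 25 min than at 20 min.

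Without the 25 min library the Trep of all 10 latest valleys was earlier, by 0.75 to 1.46 min. With 1 free scale for each bin 6 of the 10 moved beyond the noise, in both directions, such as the valley in MTF2 to 30.4 min and that in RRP5 to 33.2 min. Base composition was similar across the sites, with a median G+C content over 9 kb of 38.0% at the 10 latest valleys, 37.9% at all valleys, 39.0% at the 10 earliest peaks, 38.3% at all peaks and 38.2% over the genome. The ratios themselves went with G+C content in some libraries, with a rank correlation across 10517 windows of 0.42 in the 50 min library and 0.22 in the 45 min library, and between -0.06 and 0.15 in the others. Its part in the values was not tested.

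Chromosomes differed little in the median Trep of their peaks. It lay between 16.8 min on chromosome VI and 18.2 min on chromosome X. The latest peak lay between 17.9 min on chromosome I and 23.5 min on chromosome XIII. The latest valley lay between 24.9 min on chromosome III and 33.5 min on chromosome XII. Latest values are extremes that depend on the number of sites, and they cannot be set against medians. The number of peaks ran from 4 on chromosome I to 27 on chromosome IV. The short chromosomes I, III and VI had median Trep values of 19.1, 20.0 and 20.0 min over all bins, and the latest median was 21.8 min on chromosome VII. Chromosome III, which had the most peaks for its length, 25.3 per Mb, also had the smallest median distance between peaks, 31 kb.

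**Figure D5:**
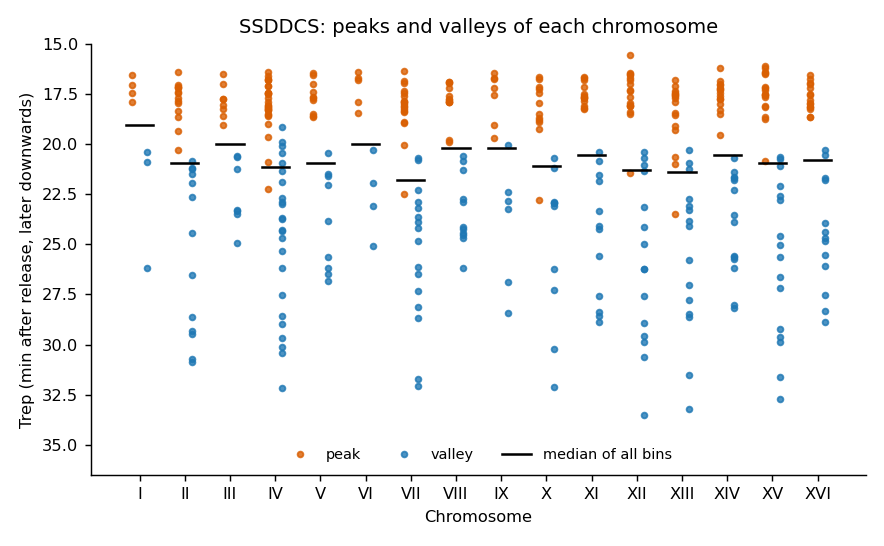
Trep of peaks and valleys (y axis, min after release, later downwards) on each of the 16 chromosomes of SSDDCS (x axis), with the median over all bins as a line. Chromosome medians of the peaks run from 16.8 to 18.2 min. The latest peaks range from 17.9 to 23.5 min and the latest valleys from 24.9 to 33.5 min.

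Sites near chromosome ends were not late in this strain. The median Trep was 20.5 min within 10 kb of an end (87 bins), 19.4 min at 10 to 20 kb (210), 19.2 min at 20 to 30 kb (280), 19.4 min at 30 to 40 kb (305) and 20.2 min at 40 to 50 kb (316). Over the bins more than 50 kb away it was 21.1 min (10117 bins). Much of the repeated sequence at the very ends was not measured.

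The 16 centromeres, where the spindle attaches, had a median Trep of 20.0 min, against 20.9 min over all bins. The earliest was CEN1 (18.1 min), followed by CEN12 (18.8 min) and CEN2 (19.0 min), and the latest were CEN16 (21.4 min) and CEN8 (22.0 min). Of the 16, 12 were earlier than the median of all bins. Only CEN10 lay within 5 kb of a peak, which holds for 20.1% of all bins, and 6 lay within 5 kb of a valley, which holds for 17.8%. CEN4 lay 0.27 kb from the centre of a valley with a Trep of 20.1 min.

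Genes of replication were spread over the whole programme. The 26 genes of origin licensing and initiation had a median of 21.2 min, with 13 of them earlier than the median of all 5749 protein-coding genes measured, 20.9 min. CDC6, which loads the MCM helicase, was the earliest at 16.9 min, 0.61 kb from a peak on chromosome X. DPB11 was the latest at 30.2 min, 3.60 kb from the valley in SIP4. The MCM helicase genes ran from 17.5 min for MCM2 to 25.5 min for MCM4 and 27.0 min for MCM5, and the genes of the origin recognition complex from 17.5 min for ORC3 to 27.4 min for ORC2.

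The native loci of the other over-expressed factors were at 17.1 min for SLD7, 19.2 min for DBF4, 21.5 min for SLD3, 23.2 min for SLD2 and 24.0 min for CDC45. Reads of the inserted copies at LEU2, HIS3 and TRP1 can map to these genes and to DPB11, so that their values may mix both places. The same holds for GAL1 (26.3 min) and GAL10 (26.9 min), whose shared promoter is part of each insert.

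The 8 core histone genes, which are transcribed mainly in S-phase, had a median of 19.1 min, and 6 were earlier than the gene median. HTA1 was the earliest at 18.1 min. HHT2 (22.6 min) and HHF2 (22.8 min), the divergent pair on chromosome XIV, were the latest. The genes of ribonucleotide reductase ran from 19.5 min for RNR3 to 23.9 min for RNR4. The 7 genes of galactose use had a median of 21.8 min, and 3 of them, GAL3, GAL4 and GAL80, were earlier than the gene median.

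Among 9 cyclin genes the median was 19.7 min, and CLB5, the main S-phase cyclin, was the earliest at 17.8 min. CLB4 (28.3 min) and CLB3 (30.4 min) were far later than the rest, and CLB3 lay 6.91 kb from a valley of 30.4 min on chromosome IV. STE7, the mating pathway kinase gene, was 2.75 kb from the same valley, at 29.3 min. The 13 pheromone response genes had the latest list median, 23.1 min, and 4 of them were earlier than the gene median.

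In the other lists more members were earlier than the gene median than later. Glycolysis genes had a median of 19.4 min, with 12 of 16 earlier, from ENO2 (17.5 min) to PFK2 (23.1 min). Meiosis genes had 19.3 min, with 7 of 9 earlier, from SPO11 (17.4 min), the nuclease that starts recombination, to IME4 (23.0 min). Ribosomal protein genes had 19.9 min, with 80 of 132 earlier, and ran from 16.7 min for RPL23A to 31.0 min for RPS10B. The 262 tRNA genes measured had 20.1 min, with 151 earlier. Neighbouring genes share bins and forks, so that these medians describe where the genes lie and no test was made.

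For context, the sml1Δ strain gave fewer peaks by the same steps, with 211 in SSDDCS and 153 in sml1Δ. Peak Trep spanned 2.38 min in SSDDCS and 5.50 min in sml1Δ between the 10th and 90th percentiles, and valley Trep 8.92 min in SSDDCS and 8.90 min in sml1Δ. The noise of a 9-bin mean was also higher, with 0.69 min in SSDDCS and 0.41 min in sml1Δ, and its part in the number of peaks was not tested.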

How the data were processed

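Yeast DNA from synchronised SSDDCS cells was sequenced at 11 time points and set against G1 cells of that strain. The authors mapped reads with Bowtie2 (version 2.2.6) to the S288C genome (sacCer3) and took ratios of reads with a unique position per 1-kb bin. SAMtools (1.7.2) and bedtools (2.26.0) are also named in the submitters' processing notes. Each deposited value is a ratio of S-phase to G1 reads, which the authors scaled by a bulk factor from flow cytometry so that a table averages the mean copy number. Each table mean differed from its factor by at most 0.00403. No read counts are in the tables, so depth is unknown.

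From these ratios a logistic curve from 1 to 2 copies was fitted to each bin by least squares (Python 3.11.15, numpy 2.4.6, scipy 1.17.1). Bins needed 9 or more time points, a Trep between 5 and 60 min and an SE of at most 5 min. Peaks were minima of a 9-bin moving average with a prominence of at least 2 min, and valleys the latest bin between neighbouring peaks with no gap above 10 kb. Named sites were the 10 earliest and 5 latest peaks and the 10 latest valleys with at least 7 of 9 bins measured, the valleys not beside a gap, and the 5 widest and 5 narrowest intervals. Late origins, peaks far from origins and single list genes were named after their values were seen. Genes were read at the bin of their midpoint. The members and lists were chosen with earlier results of these data known. Origins, genes, sequences and centromeres came from the RefSeq annotation of R64, the same assembly as sacCer3. The fits and peak calling were also run on simulated data built from the smoothed SSDDCS profile. The number of peaks that noise alone gives is not reported here, so this run is no support for the peak count. Alternatives covered the curve, its scale, averaging, the SE limit, prominence, smoothing, distances and leaving out each library. A prominence of 4 min was added after seeing the data.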

Additional observations from a re-analysis of the deposited data

How the results depend on the processing

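No paired analysis was possible because every time point has a single library per strain. A value was taken as unchanged within 0.69 min for Trep, within the Wilson interval for the share near origins, and within 1.5 times for the rest. For 8 results 148 alternative values were computed, and 134 stayed within these limits. Some of the 134 could not have moved. The difference between origins and far bins was taken at its largest time point, 20 min, so leaving out any other library cannot change it. With a scale fitted per bin the median Trep was 19.9 min and 84.7% of peaks lay within 3 kb of an annotated origin. With ratios averaged over 5 bins the span of Trep was 8.61 min and the share 73.3%. A prominence of 1 min gave a valley median of 23.3 min and a share of 59.2%, 3 min gave a valley median of 25.0 min, and 4 min gave 136 peaks and a valley median of 26.1 min. A moving average over 5 bins gave a share of 47.8%, with 301 peaks, a median distance of 35 kb and a rise of 0.36 min per kb. The number of peaks was 267 with a prominence of 1 min and 164 with a moving average over 15 bins. Their median distances were 39 and 65 kb. These counts and distances thus depended on the processing, although they stayed within the limit of 1.5 times. Within 1 kb the share was 28.0% and within 5 kb 78.7%.

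Leaving out each library in turn, the median Trep lay between 20.8 and 21.3 min, its span between 9.87 and 10.4 min, the number of peaks between 199 and 223, their median distance between 46 and 52.5 kb, the valley median between 23.6 and 24.4 min, and the rise between 0.26 and 0.28 min per kb. The share near origins lay between 57.3%, without the 15 min library, and 68.2%, and it was 59.2% without the 25 min library. The largest difference between origins and far bins was 15.1% without the 20 min library. It was 19.4% otherwise, which was fixed in advance because the largest value is that of the 20 min library. Of the 211 peaks, between 89.1% and 99.1% had a peak within 5 kb when a library was left out, 78.7% with a scale per bin, and 93.4% with no fit and no bulk factor. With 1 library a time point, no value has a replicate check, and the shared G1 library enters all 11 tables.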

Other observations

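A single bin of the ribosomal DNA, chrXII:459001-460000, was measured in all 11 libraries but gave no usable Trep, with an SE of 7.22 min. Its ratios from 5 to 60 min were 0.92, 1.25, 1.21, 1.26, 1.61, 1.47, 1.81, 2.11, 1.497, 1.52 and 1.47. The ribosomal DNA is a long tandem array of rRNA genes with an origin in each repeat, and most of it cannot be mapped uniquely. The bin was highest at 40 min and stayed near 1.5 from 45 min on, when all 9-bin means had passed 1.75. This is 1 bin without replicates, and its value at 40 min has no second library beside it.

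The other 10 bins without a Trep had values at 8 or fewer time points. Of the 50 annotated LTR retrotransposons only 1 had a 9-bin Trep, so that this class is not described.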
